A study of Mus musculus with 6 samples.

Results

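The stress and outer root sheath keratins followed here are 7 genes, Krt6a, Krt6b, Krt16, Krt17, Krt75, Krt79 and Krt24, taken by gene name from a table of 55291 genes in mouse dorsal skin. They were compared between 3 wild-type (WT) samples of strain C57BL/6 and 3 samples of strain B6.Cg-Fbn1Tsk/J, whose genotype the labels write as Fbn1+/- and which are called Tsk. All mice were 6 weeks old (day 40). Tsk, tight skin, is known as an internal duplication in Fbn1, the gene of the microfibril protein fibrillin 1. The labels state neither sex nor litter nor whether each sample is a separate animal, so the spread that p-values rest on may be technical. Whole skin was sequenced, in which fewer cells of a type and less RNA per cell cannot be told apart.

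Keratins build the intermediate filaments of epithelial cells, and a filament needs a type II and a type I keratin as partners. Krt6a and Krt6b (type II) and Krt16 and Krt17 (type I) are held low or absent between hair follicles in healthy skin, are made in the outer root sheath and companion layer of the follicle, and are induced in epidermis by wounding and other stress. Krt75 (type II) marks the companion layer, a cell sheet between the outer and inner root sheaths, Krt79 (type II) marks the follicle opening and its canal, and Krt24 (type I) has been used as a marker of the mouse follicle bulge.

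Libraries held 17561271 to 19219622 counts. Fbn1 had 4684 to 5420 counts in WT and 27971 to 43910 in Tsk, a gene-level sum that does not separate the alleles. The labelled tissue fitted its markers, since the summed level of 5 basal epidermis genes was 3530 to 5686 CPM in WT and 2411 to 4304 in Tsk, and all 7 suprabasal genes were detected, at a summed 1595 to 2002 CPM in WT and 1968 to 3634 in Tsk. CPM, the level used throughout, is the count relative to the library total after TMM scaling, a factor per library that balances its overall composition. Krt4, Krt13 and Krt76, keratins of oral and oesophageal epithelium, summed to 0.141 to 0.673 CPM. Skeletal muscle genes took 14.1 to 20.4% of counts in WT and 12.3 to 13.9% in Tsk, and basal epidermis genes 0.290 to 0.583% and 0.269 to 0.457%, and their part in the keratin results was not tested.

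Of the 7 keratins, 1 fell in Tsk skin and 0 rose. Krt24 fell to about 0.470 of its WT level, and Krt6b had the most negative fitted fold change of all 19971 genes tested, without passing the threshold. Krt6a, Krt16 and Krt17, the most abundant stress keratins, had overlapping groups and log2 fold changes of -0.27 ± 0.22, 0.06 ± 0.58 and 0.19 ± 0.24 (SE, n = 3 each). A gene was called when its Benjamini-Hochberg adjusted p over all genes, from edgeR's quasi-likelihood test, was under 0.05. Over all genes 3.42% were called, 2.72% higher and 0.696% lower, so 1 of 7 members is a count too small to set apart from that background. At an unadjusted edgeR p under 0.05 there were 3 lower members (Krt6b, Krt24 and Krt75) and 0 higher, where 7.95% of all genes were lower and 12.1% higher. DESeq2 called 2 lower, Krt6b and Krt24, and 0 higher, where it called 2.18% of all genes lower and 5.79% higher. The members' median log2 fold change was -0.27, against -0.03 over all genes. Groups did not overlap in 3 of the 7, Krt6b and Krt24 lower and Krt79 higher, where 24.7% of all genes were separated in this way. With library totals alone as the scaling, the median of all genes moved to 0.25, the share of calls that were higher went from 79.6 to 94.6%, and 0 members were called.

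**Figure D1:**
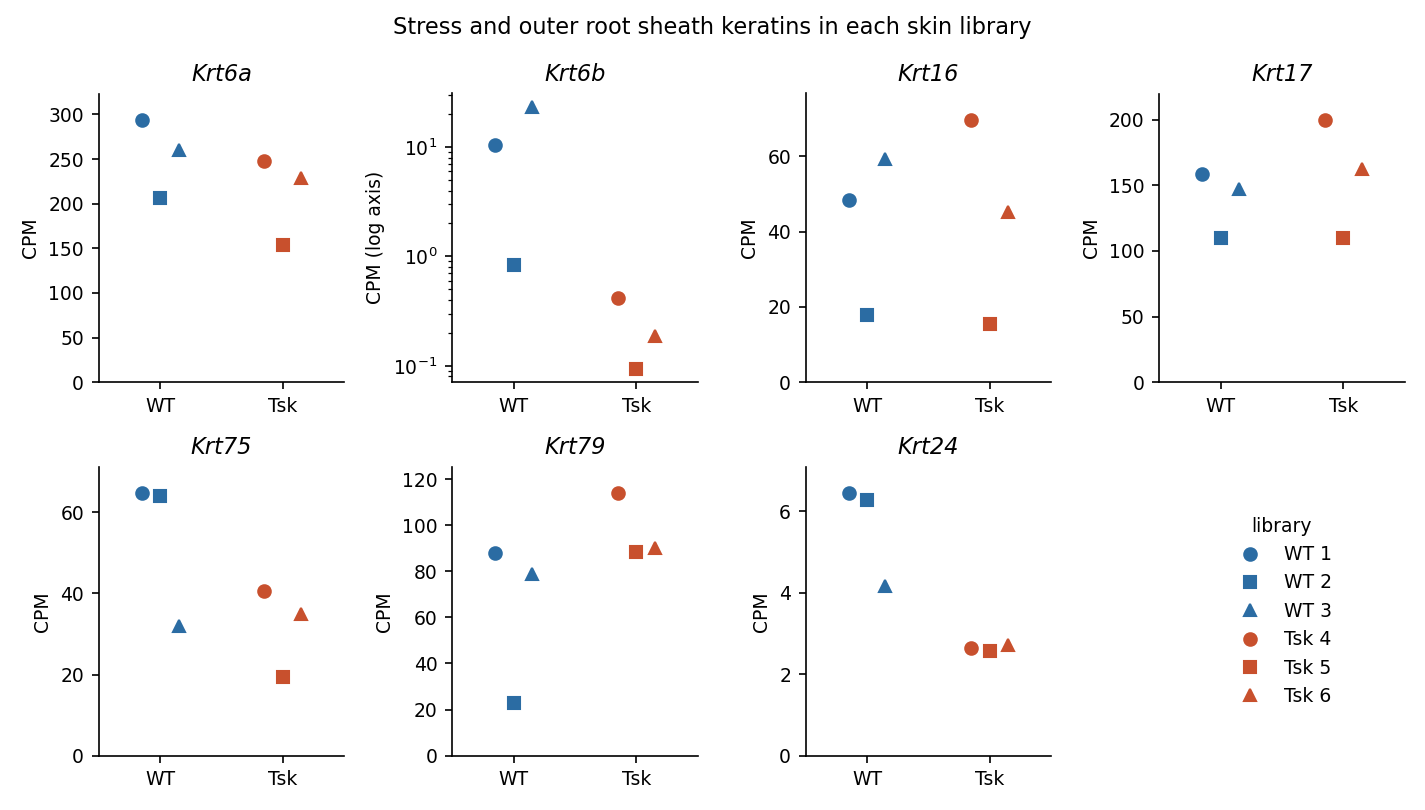
Level of each of the 7 keratins in CPM (y axis) in the 3 WT and 3 Tsk libraries (points, 1 per library). The axis of Krt6b is logarithmic and runs from 0.0933 to 23.4 CPM over the points, the other axes start at 0, and the groups do not overlap for Krt6b, Krt24 and Krt79.

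Krt24 lies on the minus strand of chromosome 11 (mm10, 99279959 to 99285262), apart from the Krt16 and Krt17 pair on the same chromosome. It had 116, 97 and 67 counts in WT and 51, 55 and 58 in Tsk. These are levels of 6.44, 6.27 and 4.15 CPM in WT and 2.64, 2.57 and 2.72 CPM in Tsk, so every Tsk library lay below every WT library and the Tsk values lay close together. Krt24 fell by 1.09 ± 0.22 on the log2 scale (SE, edgeR adjusted p = 0.0366). The call did not hold in any of the 6 edgeR fits that left out 1 library. Its log2 fold change then ran from -1.25 to -0.95, with adjusted p from 0.0592 (without WT replicate 1) over 0.0611 (without WT replicate 3), 0.0804 (without Tsk replicate 6), 0.0872 (without Tsk replicate 4) and 0.0962 (without Tsk replicate 5) to 0.123 (without WT replicate 2). By limma-voom the adjusted p was 0.0504.

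The 250 bases before the start of Krt24 are shown because it was the member that passed. The windows of Krt75 and Krt79 are shown beside it, as the members among the 7 that matched the RefSeq promoter table (GRCm38.p6, 3 of 7). Each is printed 5′ to 3′ on the minus strand, ending at the base before the start, and capitals mark matches to any of 8 short motifs.
Krt24, chr11:99285263-99285512: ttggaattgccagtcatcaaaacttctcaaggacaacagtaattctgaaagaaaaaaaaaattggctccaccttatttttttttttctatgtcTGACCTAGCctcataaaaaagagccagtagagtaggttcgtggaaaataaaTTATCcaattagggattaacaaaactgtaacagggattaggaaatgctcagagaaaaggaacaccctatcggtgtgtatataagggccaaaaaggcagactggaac
Krt75, chr15:101573905-101574154: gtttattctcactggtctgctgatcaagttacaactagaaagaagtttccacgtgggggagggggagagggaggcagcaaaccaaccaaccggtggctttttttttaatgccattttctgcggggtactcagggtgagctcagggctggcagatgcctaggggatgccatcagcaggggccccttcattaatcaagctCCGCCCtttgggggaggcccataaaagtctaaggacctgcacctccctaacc
Krt79, chr15:101940325-101940574: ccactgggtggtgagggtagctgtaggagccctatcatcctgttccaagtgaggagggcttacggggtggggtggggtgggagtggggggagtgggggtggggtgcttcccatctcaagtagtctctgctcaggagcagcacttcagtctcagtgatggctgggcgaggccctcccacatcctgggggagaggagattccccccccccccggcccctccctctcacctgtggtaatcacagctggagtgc

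The motifs were searched on both strands, and no match overlapped another. The Nrf2-type motif TGACNNNGC began 157 bases before the start of Krt24 and is in 10.2% of 32817 promoter windows of this length, and the GATA motif (GATAA) began 106 bases before it and is in 22.6%. The Krt75 window held the GC box GGGCGG, which is in 32.7% of windows. The AP-1 motif TGANTCA (6.75%), the TATA box string TATAAA (12.4%), the TEAD motif GGAATG (12.6%), the RBPJ motif GTGGGAA (5.42%) and the TCF/LEF motif CTTTGA (13.8%) had no match in any of the 3 windows. Only these letters were searched, so variants were not counted. The letters tatataag near the end of the Krt24 window are therefore unmarked, and the search does not show that Krt24 lacks a TATA box. The windows differed in base composition, at 36.8% G and C for Krt24, 53.6% for Krt75 and 64.0% for Krt79, against a median of 52.4% over all windows. These matches describe letters and not binding.

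Krt6a and Krt6b are neighbours on the minus strand of chromosome 15 (101689910 to 101694307 and 101676023 to 101680287), with start sites 14020 bases apart. Krt6a had 5294, 3192 and 4194 counts in WT and 4792, 3300 and 4860 in Tsk. In CPM these are 294, 206 and 260 in WT and 248, 154 and 228 in Tsk, so the groups overlapped (edgeR adjusted p = 0.543). Krt6b had 189, 13 and 377 counts in WT and 8, 2 and 4 in Tsk. Its levels were 10.5, 0.841 and 23.4 CPM in WT and 0.414, 0.0933 and 0.188 CPM in Tsk. Every Tsk library lay below every WT library, and the WT libraries themselves differed more than any other member's, with WT replicate 2 near the Tsk values. The 95% Poisson intervals, which cover counting error only, were 0.448 to 1.44 CPM in WT replicate 2 and 0.179 to 0.816 in Tsk replicate 4, and so overlapped.

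The fitted log2 difference of Krt6b was -5.63 ± 1.23 (SE), with an edgeR p of 0.00226 before and 0.0572 after adjustment. It passed in DESeq2 (adjusted p = 0.000386) and in the edgeR fit without WT replicate 2, at -6.17 ± 0.51 (adjusted p = 0.00369). With 1 of the other 5 libraries left out it ran from -6.30 to -4.62, with edgeR adjusted p from 0.0966 to 0.154. Few counts in Tsk make the size of this fold uncertain.

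The coding transcripts of Krt6a and Krt6b are nearly alike in places, and 44.5% of the 50-base windows and 30.1% of the 100-base windows of Krt6b occur in Krt6a. Neither read length nor counting rule is stated, and the estimated counts of both genes were not whole in all 6 libraries, so part of the split between them was estimated and is uncertain. The abundant basal keratin Krt5 holds 6.73% of the 50-base windows of Krt6a and 2.24% of those of Krt6b. Krt6b took 3.45, 0.406 and 8.25% of the summed counts of both in WT and 0.167, 0.0606 and 0.0822% in Tsk. The groups did not overlap (exact two-sided permutation test, p = 0.1, the smallest that 3 against 3 allows, 0.2 adjusted over 10 such ratios). Counted as 1 gene, Krt6a plus Krt6b stood at -0.33 ± 0.23 (edgeR adjusted p = 0.460), since Krt6a held nearly all counts. The antisense gene Gm49428 inside Krt6a had 1 count in all 6 libraries together.

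**Figure D2:**
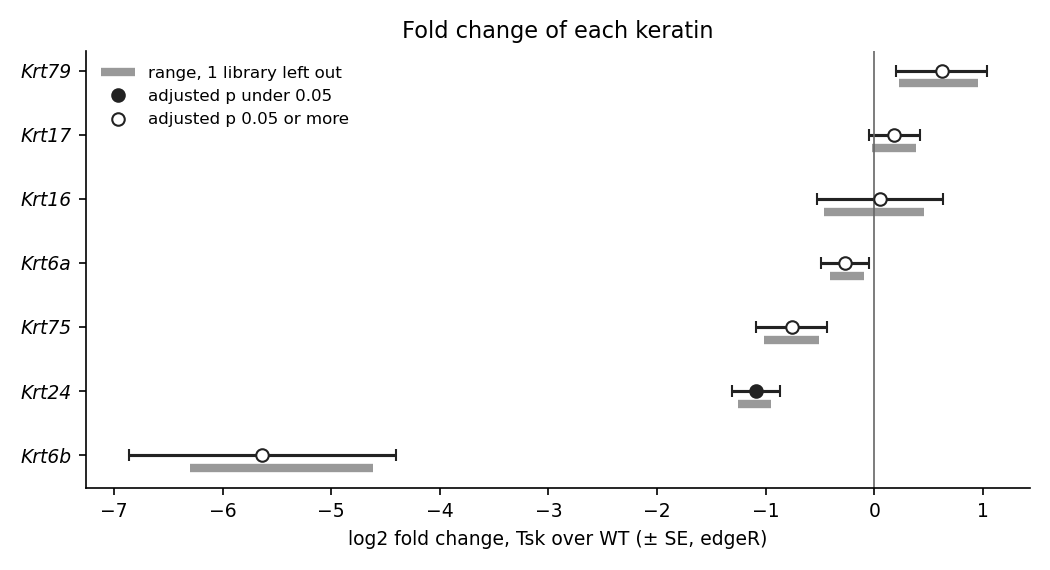
Log2 fold change of Tsk over WT for each keratin (x axis) with its SE from edgeR (black bars) and the range over the 6 fits that left out 1 library (grey bars). Krt24 is the filled point, with adjusted p = 0.0366, and Krt6b lies far to the left of the others with a wide error.

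Krt16 and Krt17 are neighbours on the minus strand of chromosome 11 (100246091 to 100248902 and 100256217 to 100261029). Krt16 had 870, 274 and 956 counts in WT and 1347, 333 and 962 in Tsk, or 48.3, 17.7 and 59.3 CPM against 69.7, 15.5 and 45.2 CPM. The spread within each group was larger than the difference between them (edgeR adjusted p = 0.971). Krt17 had 2850, 1692 and 2367 counts in WT and 3863, 2347 and 3458 in Tsk, or 158, 109 and 147 CPM against 200, 110 and 162 CPM, and its groups overlapped too (edgeR adjusted p = 0.715). Among WT libraries replicate 2, and among Tsk libraries replicate 5, was the lowest for Krt6a, Krt16 and Krt17 alike. Of the 50-base windows of Krt16, 37.6% occur in transcripts of 3 other genes, so its counts are uncertain too. The pseudogene Gm11597, which held 0 counts in 5 libraries and 2 in Tsk replicate 5, holds 25.2% of these windows, the abundant basal keratin Krt14 holds 12.4% and Krt17 0.396%. Of the windows of Krt17, 3.66% occur in Krt14.

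The balance between the type II and type I partners separated the groups, without a test that could pass at this size. The ratio of Krt6a plus Krt6b counts to Krt16 plus Krt17 counts was 1.47, 1.63 and 1.38 in WT and 0.921, 1.23 and 1.101 in Tsk. The means were 1.49 ± 0.128 and 1.08 ± 0.156 (SD, n = 3 each), and the groups did not overlap (exact two-sided permutation test, p = 0.1, the smallest possible, 0.2 adjusted over the 10 ratios). Per kilobase of coding transcript, Krt6a was the higher of Krt6a and Krt17 in all 3 WT libraries, at 1.26, 1.28 and 1.21 times Krt17, and the lower in all 3 Tsk libraries, at 0.845, 0.957 and 0.957 times. This per-length ratio was chosen after the values were seen and has no test. The count ratio of Krt16 to Krt17 was 0.305, 0.162 and 0.404 in WT and 0.349, 0.142 and 0.278 in Tsk, which overlapped (exact two-sided permutation test, p = 0.7).

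**Figure D3:**
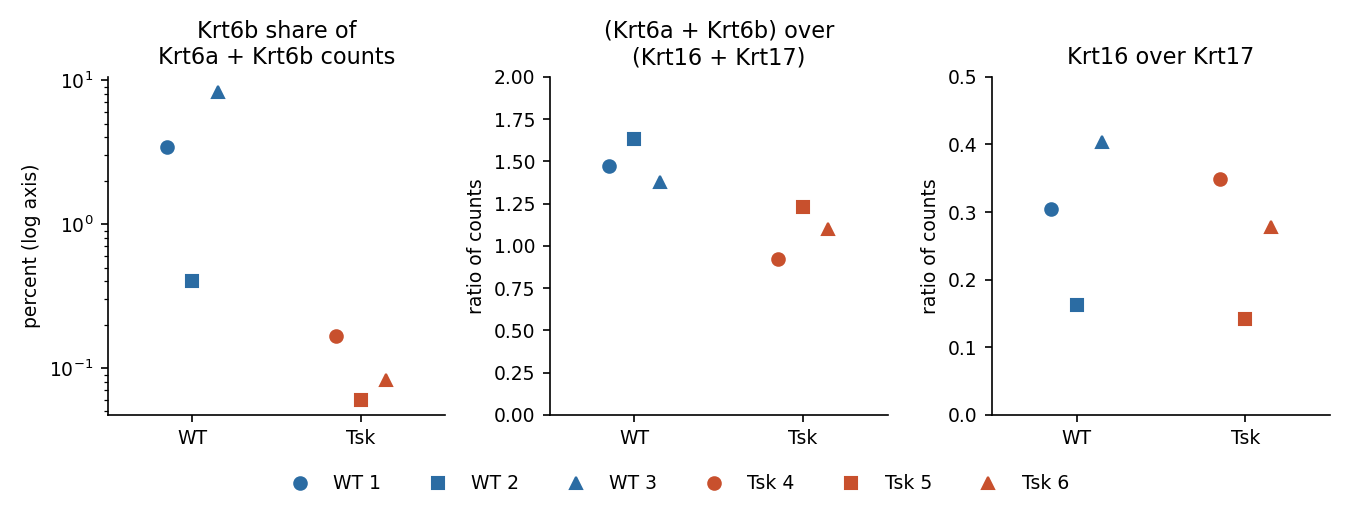
Ratios of counts in each library (points), with the Krt6b share of Krt6a plus Krt6b in percent on a log axis, the ratio of Krt6a plus Krt6b to Krt16 plus Krt17, and the ratio of Krt16 to Krt17, both on linear axes from 0. WT and Tsk libraries do not overlap for the Krt6b share and the partner ratio and overlap for Krt16 over Krt17.

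Krt75, on the minus strand of chromosome 15 (101563345 to 101573904), had 1165, 989 and 516 counts in WT and 783, 415 and 746 in Tsk. In CPM these are 64.7, 64.0 and 32.0 in WT and 40.5, 19.4 and 35.04 in Tsk. Its groups overlapped because WT replicate 3 lay below Tsk replicates 4 and 6, and its log2 fold change was -0.76 ± 0.33 (SE, edgeR adjusted p = 0.245). Krt79, on the same chromosome and strand (101929332 to 101940324), had 1585, 356 and 1274 counts in WT and 2200, 1895 and 1916 in Tsk. In CPM these are 88.0, 23.0 and 79.0 in WT and 114, 88.4 and 90.0 in Tsk. The Tsk libraries lay above the WT libraries, but Tsk replicate 5 exceeded WT replicate 1 by very little and WT replicate 2 lay far below the rest. The log2 fold change of Krt79 was 0.62 ± 0.42 (SE, edgeR adjusted p = 0.460) and 0.23 ± 0.18 without WT replicate 2. Of the 50-base windows of Krt75, Krt79 and Krt24, 0 occurred in a transcript of another gene.

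WT replicate 2 was also low in genes of the sebaceous gland, which opens into the follicle canal. The 12 sebaceous genes summed to 270 to 540 CPM in WT, of which the lowest was replicate 2, and to 628 to 5902 in Tsk, of which the highest was replicate 5. Scd1, which fat also expresses, held most of that sum, with 120624 counts in Tsk replicate 5 alone. None of these 12 was at 0 counts in all libraries. In fold change 11 stood above 0, where 9387 of all 19971 genes tested did. The part of the sebaceous genes in the Krt79 values was not tested. WT replicate 2 was also the lowest WT library in summed basal epidermis (3530 CPM), suprabasal epidermis (1595 CPM) and myeloid (90.3 CPM) genes. It had the highest muscle share, 20.4%. WT replicate 3 was the lowest in outer root sheath and bulge, inner root sheath and adipocyte genes, and WT replicate 1 in fibroblast genes. The part of these values was not tested either.

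Per kilobase of the longest coding transcript, the order of mean levels in WT was Krt6a (111 ± 19.4 CPM per kilobase), Krt17 (89.1 ± 16.5), Krt79 (30.2 ± 16.8), Krt16 (26.7 ± 13.8), Krt75 (16.4 ± 5.72), Krt6b (5.18 ± 5.06) and Krt24 (3.05 ± 0.691) (SD, n = 3). In Tsk it was Krt17 (101 ± 29.3), Krt6a (92.2 ± 21.8), Krt79 (46.5 ± 6.79), Krt16 (27.8 ± 17.3), Krt75 (9.69 ± 3.36), Krt24 (1.43 ± 0.0427) and Krt6b (0.104 ± 0.0737). The neighbours Krt6a and Krt17, Krt79 and Krt16, and Krt16 and Krt75 had overlapping mean ± SD ranges in WT, as did Krt6b and Krt24. The basal keratin Krt5 was far higher, at 958 ± 252 CPM per kilobase in WT and 633 ± 217 in Tsk. Krt79 would stand lower on the length of all its annotated exons, since its longest coding transcript has 2097 bases and its exons together 4753.

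The 7 genes together took 7.85, 7.50 and 9.16% of the counts of all 54 keratin genes in WT and 7.53, 6.79 and 10.9% in Tsk. The means, 8.17 ± 0.876% and 8.40 ± 2.19% (SD, n = 3 each), differed by less than the spread between libraries. Against the basal keratins Krt5 and Krt14, which fill the basal layer and outer root sheath, the picture was different. Neither passed itself, with log2 fold changes of -0.60 ± 0.31 and -0.61 ± 0.38 (edgeR adjusted p = 0.325 and 0.411). All 5 basal epidermis markers, which include Krt5 and Krt14, stood below 0, and edgeR called 0 of them. Over all 19971 genes tested, 10584 stood below 0.

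This scale lifts most genes in Tsk, and on it the groups did not overlap for 19.2% of all genes with Tsk higher and for 0.28% with Tsk lower. Per 100 counts of Krt5 plus Krt14, Krt17 held 3.92, 4.65 and 4.93 counts in WT and 6.70, 7.01 and 10.0 in Tsk, without overlap. Krt79 held 2.18, 0.978 and 2.65 in WT and 3.81, 5.66 and 5.54 in Tsk, also without overlap. Each of these, and Krt6b, gave p = 0.1 in an exact two-sided permutation test on log2 ratios, the smallest possible, and 0.2 adjusted over the 10 ratios. Krt6a, at 7.28, 8.77 and 8.73 in WT and 8.31, 9.85 and 14.1 in Tsk, overlapped between groups, as did Krt16 and Krt75. Krt24 overlapped on this scale as well, at 0.159, 0.267 and 0.139 in WT and 0.0884, 0.164 and 0.168 in Tsk. In an edgeR fit with every library scaled to Krt5 plus Krt14, which moved the median of all genes to 0.64, 2 members passed, where 7.52% of all genes were called higher and 0.115% lower. These were Krt6b at -5.02 ± 0.62 (adjusted p = 1.8e-12) and Krt79 at 1.37 ± 0.47 (adjusted p = 0.0498), while Krt24 stood at -0.43 ± 0.49 (adjusted p = 0.513). Krt6b had a smaller SE here than in the main fit (0.62 against 1.23), though its WT libraries ran from 0.0357 to 0.785 per 100 counts. Neither adjusted p under 0.05 from this fit is taken as a measure of the spread between libraries. Krt17 stood at 0.81 ± 0.48 (adjusted p = 0.294), little above the median of all genes in that fit.

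**Figure D4:**
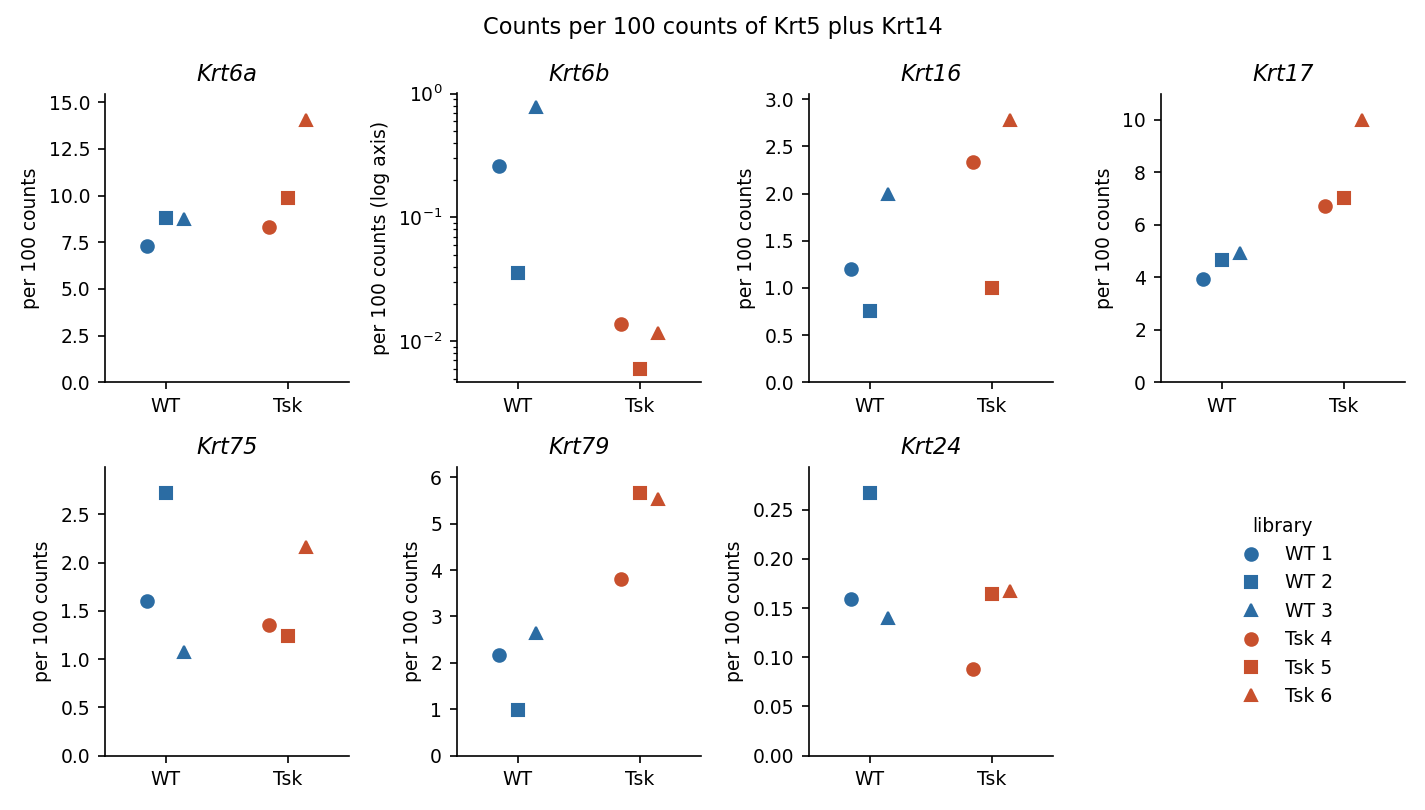
Counts of each keratin per 100 counts of Krt5 plus Krt14 (y axis) in each library (points), with a log axis for Krt6b and axes from 0 for the others. Krt17 and Krt79 separate the groups on this scale, with the Tsk points on top, as do 19.2% of all genes, and Krt17 has adjusted p = 0.294 in the fit so scaled, while Krt24, with 0.0884 to 0.267, overlaps.

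The genes around these keratins were described in lists of 155 other genes, of which 127 were tested, 16 rose and 3 fell. The background for each list below is all 19971 genes tested, of which 2.72% rose and 0.696% fell. In fold change, 9387 of them stood above 0. The number called, 19, became 1 without WT replicate 3, 8 without WT replicate 2, 10 without Tsk replicate 6, 11 without Tsk replicate 4, 12 without Tsk replicate 5 and 31 without WT replicate 1. All 19 list genes named as changed below lost the call without WT replicate 3, where the 1 called was another gene. The number of the 6 such fits in which each passed is given beside it. Lor, a suprabasal marker outside these lists, was not followed through those fits.

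Of 9 tested stress and wound genes, 1 rose (median log2 fold change 0.20), the cornified envelope precursor Sprr1a at 1.81 ± 0.38 (SE, edgeR adjusted p = 0.0423, passing in 1 of 6 fits). Its call was also lost with upper-quartile factors (adjusted p = 0.0552) and without the expression filter (adjusted p = 0.171). S100a9, a subunit of calprotectin made by neutrophils and stressed keratinocytes, stood at -2.21 ± 0.57 (edgeR adjusted p = 0.0722). Its partner S100a8 had 14, 10 and 17 counts in WT and 0, 1 and 1 in Tsk, and the cytokine gene Il1b 21, 41 and 9 in WT and 0, 1 and 1 in Tsk. S100a8 and Il1b were under the expression filter, were chosen after their values were seen and have no test. Il1a, another cytokine gene of the list, lay the other way, with 15, 14 and 14 counts in WT and 36, 52 and 25 in Tsk (1.06 ± 0.34, edgeR adjusted p = 0.124), and was also chosen after its values were seen. The 7 myeloid markers, which include S100a8 and S100a9, summed to 90.3 to 196 CPM in WT and 148 to 312 in Tsk, with 0 of them at 0 in all libraries, and their part in these values was not tested.

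Of 10 genes of the EGF receptor and its ligands, a pathway known to induce Krt6, Krt16 and Krt17 in keratinocytes, 2 rose and 1 fell (median 0.12). The ligand gene Ereg had 32, 32 and 34 counts in WT and 179, 133 and 110 in Tsk and rose by 1.79 ± 0.26 on the log2 scale (SE, edgeR adjusted p = 0.0136, 5 of 6 fits). The ligand gene Btc rose by 1.26 ± 0.23 (edgeR adjusted p = 0.0253, 2 of 6 fits). Egf had 968, 959 and 1064 counts in WT and 669, 501 and 498 in Tsk and fell by 1.16 ± 0.18 (edgeR adjusted p = 0.0156, 5 of 6 fits). The receptor gene Egfr stood at 0.10 ± 0.13 (edgeR adjusted p = 0.742). Of 12 genes of the Nrf2 pathway, which acts on oxidative stress, edgeR called 0 (median -0.15), with 1 higher and 4 lower at an unadjusted p under 0.05 (12.1 and 7.95% of all genes), and DESeq2 called 2 lower (2.18% of all genes). Its most abundant members Txnrd1 and Gstp1 stood at 0.03 ± 0.14 and -0.46 ± 0.13, and the sign of Txnrd1 turned under some settings.

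Of 20 transcription factors known to act on these keratins, 1 rose and 1 fell (median 0.06). Fosl1, an AP-1 subunit induced in wounded epidermis, had 31, 33 and 96 counts in WT and 11, 9 and 14 in Tsk. It fell by 2.56 ± 0.53 on the log2 scale (SE, edgeR adjusted p = 0.0376, 2 of 6 fits). WT replicate 3, the library with the most Krt6b, was the highest in Fosl1 too, and without it Fosl1 stood at -1.79 (edgeR adjusted p = 0.0856). WT replicates 1 and 2 lay in opposite order, with Krt6b at 10.5 and 0.841 CPM and Fosl1 at 1.72 and 2.13 CPM. Gli2, a Hedgehog pathway factor of the follicle, rose by 0.95 ± 0.19 (edgeR adjusted p = 0.0327, 2 of 6 fits). In limma-voom neither passed, with adjusted p = 0.0745 for Fosl1 and 0.0539 for Gli2.

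Of 14 genes of the infundibulum, isthmus and follicle opening, where Krt79 is made, 4 rose and 0 fell (median 0.64, 12 above 0). Besides Sprr1a, which is in this list too, the protease inhibitor gene Cst6 had 482, 234 and 370 counts in WT and 1998, 1274 and 2069 in Tsk. Its log2 fold change was 2.001 ± 0.27 (SE, edgeR adjusted p = 0.0115, 5 of 6 fits). The kallikrein protease genes Klk10 and Klk7 rose by 1.72 ± 0.32 (edgeR adjusted p = 0.0273, 3 of 6 fits) and 1.14 ± 0.20 (edgeR adjusted p = 0.0221, 4 of 6 fits). Gata6, a transcription factor of the sebaceous duct and follicle opening, had 98, 21 and 49 counts in WT and 131, 132 and 131 in Tsk (0.94 ± 0.40, edgeR adjusted p = 0.235), with WT replicate 2 lowest as for Krt79. Of the 7 suprabasal epidermis markers 4 stood above 0 and 1 rose (median 0.51), Lor, the cornified envelope protein loricrin, at 1.78 ± 0.22 (edgeR adjusted p = 0.00792), while Flg2 stood at 0.94 ± 0.23 (edgeR adjusted p = 0.0645). Sprr1a, Cst6, Klk7 and Klk10 are also known from the cornifying layers between follicles, so they do not mark the follicle opening alone, and the part of the suprabasal values in this list was not tested.

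Of 16 outer root sheath, bulge and companion layer genes, 3 rose and 0 fell (median 0.21). Cd34, a bulge marker also found on vessels and stromal cells, rose by 0.94 ± 0.16 (edgeR adjusted p = 0.0194, 3 of 6 fits). The Wnt receptor gene Fzd2 rose by 0.79 ± 0.16 (edgeR adjusted p = 0.0316, 2 of 6 fits), and Tcf7l1, a repressor of Wnt target genes in the bulge, by 0.76 ± 0.15 (edgeR adjusted p = 0.0327, 1 of 6 fits). The outer root sheath keratin Krt15 stood at -0.30 ± 0.28 (edgeR adjusted p = 0.612). Fibroblast genes, summed, lay at 6167 to 10854 CPM in WT and 18231 to 41895 in Tsk, with 0 of 6 markers at 0 in all libraries, and their part in the Cd34, Fzd2 and Gli2 values was not tested.

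Among the other keratins, 1 of 9 interfollicular ones rose (median 0.60), Krt23 at 0.99 ± 0.18 (edgeR adjusted p = 0.0264, 3 of 6 fits). Of 6 simple epithelial keratins 1 fell (median -0.14), Krt18, which had 22, 16 and 26 counts in WT and 10, 9 and 6 in Tsk. Its log2 fold change was -1.66 ± 0.37 (edgeR adjusted p = 0.0485, 0 of 6 fits), and the call was also lost with library totals alone (adjusted p = 0.0581), limma-voom (adjusted p = 0.0553) and limma-trend on the deposited CPM (adjusted p = 0.0541 and 0.0585). Of 12 inner root sheath and matrix genes 4 rose (median 0.85, 10 above 0 and 2 below). The 2 below were its most abundant members, Gata3 at -0.04 ± 0.18 and Tchh at -0.16 ± 0.25. Summed, the list overlapped between groups, at 135 to 194 CPM in WT and 164 to 208 in Tsk. The inner root sheath keratin Krt25 had 2, 4 and 0 counts in WT and 43, 129 and 47 in Tsk (edgeR adjusted p = 0.0166, 5 of 6 fits). Krt27 and Krt71, other inner root sheath keratins, rose by 2.58 ± 0.51 and 3.74 ± 0.74 (2 and 1 of 6 fits). The Krt71 call was also lost in DESeq2 (adjusted p = 0.0576) and without the expression filter (adjusted p = 0.178), and the Krt27 call in limma-voom (adjusted p = 0.0733). Lef1, a Wnt effector of the hair matrix, rose by 1.11 ± 0.21 (1 of 6 fits).

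Of 8 hair shaft keratins edgeR called 0 (median 1.77), with 5 higher at an unadjusted p under 0.05 (12.1% of all genes) and 4 called higher by DESeq2 (5.79% of all genes). Of 12 sebaceous genes edgeR called 0 (median 0.33), with 3 higher at an unadjusted p under 0.05 (12.1% of all genes) and 2 called higher by DESeq2 (5.79% of all genes). The 3 were Scd1, Pparg and Mgst1, each highest in Tsk replicate 5, and fat is known to express all of them. The 6 adipocyte markers summed to 142 to 206 CPM in WT and 394 to 2241 in Tsk, with 6 of 6 above 0, 2 called higher and Adipoq at 222 CPM in Tsk replicate 5, and their part in the sebaceous list was not tested. In a list of Krt9, Krt87 and Krt90, set up as sweat, nail and tongue keratins, Krt87 was the 1 tested member. Krt87 rose by 3.99 ± 0.47 (edgeR adjusted p = 0.00748, 5 of 6 fits), from 3, 1 and 1 counts to 37, 41 and 27. It was not placed among the hair shaft keratins, so the 0 called by edgeR there does not cover it.

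**Figure D5:**
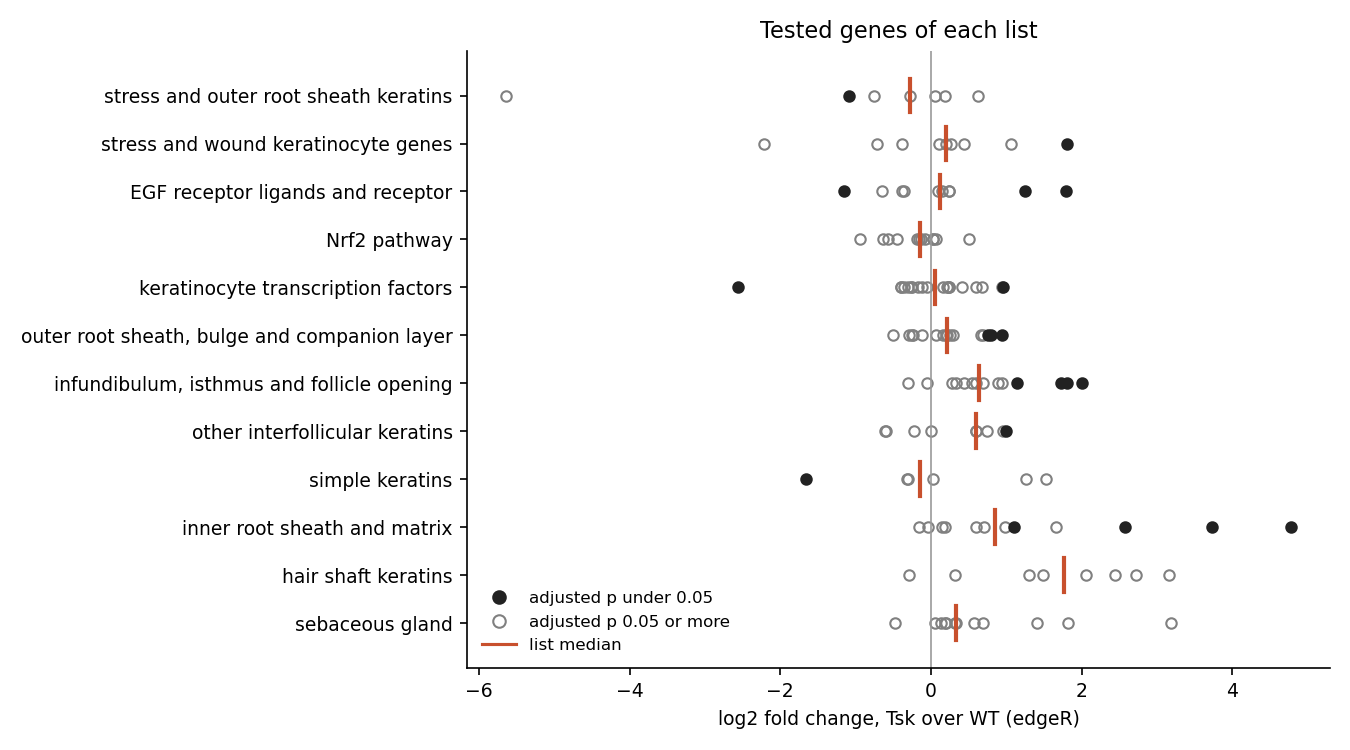
Log2 fold change of Tsk over WT (x axis) of the tested genes of 12 lists (rows), with filled points for adjusted p under 0.05 and a bar for the list median. The list of Krt9, Krt87 and Krt90, in which Krt87 rose, is not drawn. Follicle opening, inner root sheath and hair shaft genes lie mostly to the right of 0, while the stress and outer root sheath keratins have a median of -0.27 with Krt6b at the far left.

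Likeness of pattern was measured by Pearson's r of log2 CPM over the 6 libraries, which share the group difference, leaving out genes whose mean log2 CPM was under 1. The genes most like Krt6b were Ptges3-ps (0.989), Mphosph10 (0.980) and Gadd45a (0.979), and those most like Krt24 were Lsm7 (0.993), Hivep3 (0.987) and Gm9989 (0.986). The genes most like Krt79 were Rdh11 (0.998), Rab38 (0.997) and Elovl4 (0.988), and those most like Krt75 were Gm17033 (0.991), Taf4b (0.990) and Gm42664 (0.989). Krt17 was most like Npl (0.989), C730045M19Rik (0.987) and Gclc (0.985), Krt16 was most like Gm43363 (0.986), Inava (0.984) and Bst1 (0.983), and Krt6a was most like Tead3 (0.995), Sh3bp1 (0.994) and Aspm (0.989). With 6 libraries and many genes to choose from, values this high are a description.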

How the data were processed

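Per the labels, shaved dorsal skin was snap frozen and ribosome-depleted total RNA was made into stranded libraries. Per the submitters' processing notes, bcl2fastq 2.19.1.403, STAR and Partek 7.0 were used on mm10. The authors deposited expected counts (each an estimated count per gene, 31.5 to 34.1% of values not whole), which were rounded here. They also deposited CPM, TPM and a TMM-normalized signal, each with 0.0001 added per the file names, and TPM was not used. Positions and transcripts came from GENCODE M21, whose starts matched the files for all 7 genes.

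All 55291 genes were filtered by edgeR 4.0.16 (minimum count 10, minimum total 15; 19971 left) and tested in R 4.3.3 with TMM factors and the robust quasi-likelihood test. Limma 3.58.1 and DESeq2 1.42.0 were alternatives. On simulated counts for Tsk against WT (19594 genes), 54.0% of genes changed 2-fold and 83.0% of those changed 4-fold were recovered, and 6.8% of calls were false. The simulation gave both groups a common mean per gene and changed 200 genes, as many up as down. It held no shift in tissue composition and no outlying library, so these rates may not hold for the real libraries. The keratins and gene lists were chosen with earlier results of these data known. Named genes were the 7 keratins, the basal and suprabasal reference keratins, up to 4 called members of each list or else its 2 most abundant, and the 3 most alike genes per keratin. Genes named beyond that rule were chosen after their values were seen.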

Additional observations from a re-analysis of the deposited data

How the results depend on the processing

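The count of keratins called, 1, was 0 with library totals alone, limma-voom and limma-trend on the deposited CPM or TMM-normalized values, 2 with DESeq2 (Krt6b, Krt24) and 2 with scaling to Krt5 plus Krt14 (Krt6b, Krt79), and 0 to 1 with 1 library left out. For Tsk against WT, all genes, 683 were called, against 1791 with library totals alone, 1157 without the filter, 1592 by DESeq2, 1916 and 1887 by limma-trend on CPM plus 0.5 and plus 0.1, 1279 on TMM-normalized values, and 63 (without WT replicate 3) to 1381 (without WT replicate 1) with 1 library left out. In the fixed lists the 19 genes called became 34, 31, 33, 33, 33 and 31 in the same 6 settings, and 1 to 31 with 1 library left out. The keratins' share of keratin counts differed by 0.233 percentage points, by 2.84 against Krt5, Krt14, Krt1 and Krt10 alone, and by -1.01 to 1.04 with 1 library left out; the log2 value per basal keratin differed by 0.56 (0.38 to 0.69). Signs turned, without any call, for Krt6a with scaling to Krt5 plus Krt14 (0.38), Krt16 with limma-voom (-0.0217), Krt1 with library totals alone (0.0155) and Txnrd1 with upper-quartile factors (-0.0056). With 1 library left out the log2 fold change ran from -0.46 to 0.46 for Krt16, from -0.0233 to 0.39 for Krt17, from -0.0752 to 0.12 for Txnrd1, from -1.14 to 0.18 for Krt84 and from -0.0847 to 0.25 for Plin2. The cause was not tested. No paired analysis was possible because the groups share no replicate number. Among the 7 keratins precision was lowest for Krt6b and Krt16 (SE 1.23 and 0.58 on the log2 scale), and Krt6b rests on 2 to 8 counts per Tsk library.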
